A study of Mus musculus with 4 samples.

Results

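The genes described here are 10 genes of cellular lipid export and of the liver X receptor (LXR) pathway, out of 55414 genes counted in the series: Abca1, Abcg1, Abca7, Apoe, Npc2, Nr1h2, Nr1h3, Mylip, Lpl and Lpcat3. They were taken by gene symbol, each matching 1 Ensembl identifier, and the set was chosen on the knockout over wild type values of this same series. Their differences between the genotypes are therefore given as a description, and adjusted p-values come from fits across all genes. RNA was sequenced from primary mouse neural stem cells of the cortex, taken from E14.5 embryos, grown as floating spheres and then plated as a monolayer with 20 ng/ml EGF and 10 ng/ml basic FGF. The groups were Mettl4 knockout (2 libraries) and wild type (2 libraries), with no other allele or agent that differs between them in the labels. Mettl4 is the gene of an adenosine methyltransferase. The sources used here do not state the strain, the deleted part of the gene, or whether replicates came from separate embryos or cultures. The p-values therefore measure no more than the spread between libraries. Of the wild type libraries only replicate 1 held Y-linked RNA (values below), so these were not technical repeats of the same cells. Between the knockout libraries the spread may be technical.

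Cells cannot break down the sterol ring, so cholesterol in excess is exported. Abca1 and Abcg1 are membrane transporters that pass cholesterol and phospholipid to lipoprotein particles, and in the brain these particles are built mainly on apolipoprotein E, secreted largely by astrocytes. The LXRs are nuclear receptors that bind oxysterols and desmosterol, pair with a retinoid X receptor (RXR), and switch on genes of export, among them Abca1, Abcg1, Apoe and Mylip.

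Abca1 is the member whose promoter carries a widely studied LXR binding element, so its start region is shown, 250 bases before to 50 after the annotated start (RefSeq, build GRCm38.p6, chr4:53159846-53160145, minus strand, read 5′ to 3′ along the gene). Capitals mark the match to the letters GGTNA, then 5 bases of any kind, then GGTNA, a loose form of the direct repeat bound by LXR and RXR, searched on both strands.
Abca1: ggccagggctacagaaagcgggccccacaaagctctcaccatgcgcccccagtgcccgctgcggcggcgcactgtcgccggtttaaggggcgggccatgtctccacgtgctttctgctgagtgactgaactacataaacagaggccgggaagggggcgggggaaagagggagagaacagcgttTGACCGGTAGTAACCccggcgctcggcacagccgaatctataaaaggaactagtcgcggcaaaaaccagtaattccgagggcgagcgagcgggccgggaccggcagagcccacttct
The match lies 67 to 53 bases before the start, on the strand opposite to the gene. These letters occurred in 236 of 32851 annotated start windows of the same length (0.718%). RefSeq windows were at hand for 8 of the 10 genes, and Abca1 was the 1 gene of these 8 with a match, while Abcg1 and Lpl had no window in the table used. Among the other LXR target genes listed below, 2 of 7 with a window matched, Fasn and Srebf1, both on chromosome 11. The 3 matches, each read along its own strand with the fixed letters in capitals, were as follows.
Abca1: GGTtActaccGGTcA
Fasn: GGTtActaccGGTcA
Srebf1: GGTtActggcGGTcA
Abca1 and Fasn held the same 15 letters, and Srebf1 differed from them only within the 5 bases of any kind. A match describes these letters only, and its absence from a window says nothing about distant elements. Apoe, whose known LXR control lies in distant enhancers, had no match in its windows.

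The libraries held 18150389 and 19310668 counts in the knockout and 12812064 and 16883734 in the wild type. Mettl4 RNA was 15.6 and 17.6 CPM (counts scaled to library size with TMM factors) in knockout replicates 1 and 2, against 63.8 and 66.6 CPM in wild type replicates 1 and 2. It was the only gene of 19912 tested that passed a Benjamini-Hochberg adjusted p of 0.05 in the edgeR quasi-likelihood test, which is 0.00502% of them (log2 fold change -1.97, SE 0.17, adjusted p = 0.0051). Neural stem cell markers were abundant, with Vim at 1689 and 1662 CPM and Slc1a3 at 995 and 873 CPM in the knockout, against 1903 and 1949 CPM for Vim and 1098 and 1206 CPM for Slc1a3 in the wild type. The Y-linked Ddx3y had 0 and 0 counts in knockout replicates 1 and 2, against 626 and 0 counts in wild type replicates 1 and 2, so wild type replicate 1 differed from the other 3 libraries in sex-linked RNA. In simulated counts of this design the test recovered 43.1% of genes changed by a factor of 2 and 82.6% of those changed by a factor of 4. Each simulated gene was independent and had the spread usual for its level. These rates therefore do not hold for genes with a wider spread. Abca1 and Apoe had an SE of 0.39 and 0.42 in log2 fold change, against a median of 0.25 over all tested genes.

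Of the lipid genes, 9 of 10 had enough counts for the test, and 0 of these 9 were called. At an unadjusted p under 0.05 the count was 0 in edgeR with TMM scaling, the low-count filter and no replicate block. In that fit 2.77% of all tested genes passed. The count was 1 (Abca1) with RLE scaling (2.81% of all genes) and 1 (Abca1) with a replicate block (7.83%). It was 2 (Abca1 and Apoe) with no filter (3.06%). DESeq2 and limma-voom each also called 0, and each put 2 at an unadjusted p under 0.05, Abca1 and Apoe, where 1.46% of all tested genes passed in DESeq2 and 2.75% in limma-voom. The edgeR adjusted p was 1.00 for each of the 9. Of the 9, 6 had a negative log2 fold change, against 50.3% of all genes tested, and their median was -0.20, against -0.00 over all genes. Since this contrast was in view when the genes were chosen, nothing is read from these counts.

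Abca1 (ENSMUSG00000015243, chromosome 4) was lower in the knockout mainly through 1 library, and it was not called. Its level was 12.5 and 4.65 CPM in knockout replicates 1 and 2, against 16.8 and 14.2 CPM in wild type replicates 1 and 2. Knockout replicate 2 stood apart, while knockout replicate 1 was just under the lower wild type library. The means were 8.58 ± 5.55 CPM in the knockout and 15.5 ± 1.86 CPM in the wild type (SD, n = 2 each), and the log2 fold change of -0.85 (SE 0.39) had a 95% confidence interval from -1.73 to 0.03. Because these are bulk libraries, fewer cells that express a gene and less RNA per cell cannot be told apart, here and below.

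Apoe (ENSMUSG00000002985, chromosome 7), which encodes the apolipoprotein that accepts the exported sterol, had nearly the same profile. It measured 14.6 and 4.93 CPM in knockout replicates 1 and 2, against 16.2 and 18.8 CPM in wild type replicates 1 and 2. The means were 9.74 ± 6.81 CPM in the knockout and 17.5 ± 1.90 CPM in the wild type (SD, n = 2 each). The log2 fold change was -0.84 (SE 0.42), its interval running from -1.81 to 0.13. As with Abca1, both knockout libraries were below both wild type libraries, and the distance was large in replicate 2 only. The raw counts in knockout replicate 2 were 85 for Abca1 and 90 for Apoe, while the other 3 libraries held 223 to 237 counts of Abca1 and 214 to 309 of Apoe.

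The other exporters did not share this profile in full. Abca7 (ENSMUSG00000035722, chromosome 10), a relative of Abca1 that moves phospholipid and is better known for its link to phagocytosis and amyloid handling, read 6.91 and 3.12 CPM in knockout replicates 1 and 2, against 6.79 and 4.82 CPM in wild type replicates 1 and 2. Replicate 2 was the lower one in both genotypes. Knockout replicate 2 was the lowest library and knockout replicate 1 the highest, so the groups overlapped. Its log2 fold change was -0.20 (SE 0.37), and it was -0.89 without knockout replicate 1, 0.26 without knockout replicate 2 and 0.06 without wild type replicate 1. Abcg1 (ENSMUSG00000024030, chromosome 17), the partner exporter that loads sterol onto particles already formed, had 1 and 2 counts in knockout replicates 1 and 2, against 2 and 1 counts in wild type replicates 1 and 2. It was under the filter, and no difference could be detected at this depth.

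**Figure D1:**
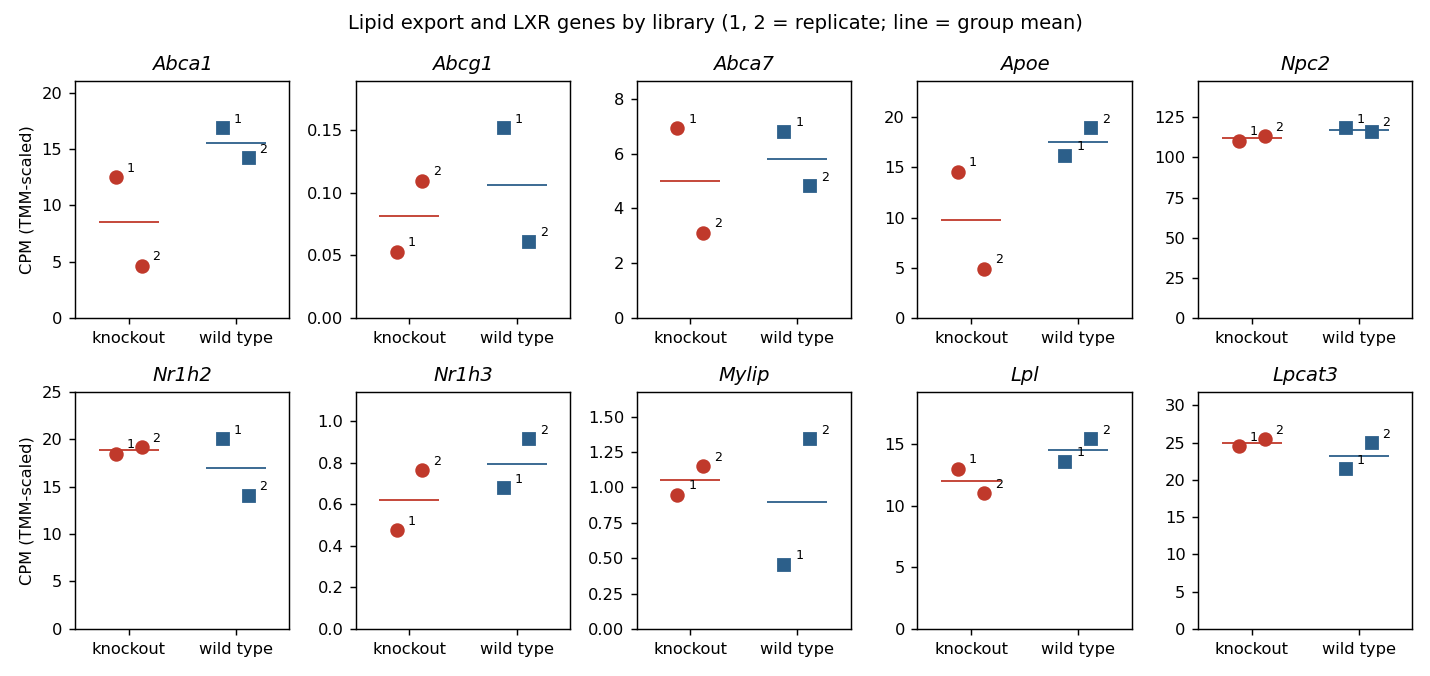
Level of each of the 10 genes in CPM (vertical axes start at 0 and differ between panels) in the knockout (red circles) and wild type (blue squares) libraries, numbered by replicate, with a line at each group mean. Abca1 and Apoe are at 4.65 and 4.93 CPM in knockout replicate 2, well under their other 3 libraries, whereas Npc2 and Lpcat3 vary little.

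The share of the shift carried by knockout replicate 2 was measured on log2 CPM (prior count of 2), as the distance of each knockout library from the mean of the wild type libraries. For Abca1 this distance was -0.30 in replicate 1 and -1.71 in replicate 2, so that replicate 2 held 84.9% of the summed shift. For Apoe it was -0.26 in replicate 1 and -1.80 in replicate 2, with 87.4% in replicate 2. The wild type libraries differed from each other by 0.24 for Abca1 and by 0.22 for Apoe (given as size, wild type replicate 1 higher for Abca1 and replicate 2 higher for Apoe). These measures are unlike, since each wild type library lies nearer to the wild type mean than to the other wild type library. The shift in knockout replicate 1 was somewhat larger than the full distance between wild type replicates, and that replicate was below both. The shift in replicate 2 was several times larger.

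In knockout replicate 2, 2 of the 9 genes were at least 1 log2 unit under the wild type mean, where 3.07% of all tested genes were, and in replicate 1 the count was 0, against 1.19% of all tested genes. Of all genes tested, 0.557% were as low as or lower than Abca1 in replicate 2, and 0.442% for Apoe. Abca7 was at 0.27 in replicate 1 and -0.85 in replicate 2, opposite signs. The other 6 tested genes lay between -0.61 (Nr1h3 in replicate 1) and 0.47 (Mylip in replicate 2). The median distance over the 9 genes was -0.08 in replicate 1 and -0.05 in replicate 2.

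**Figure D2:**
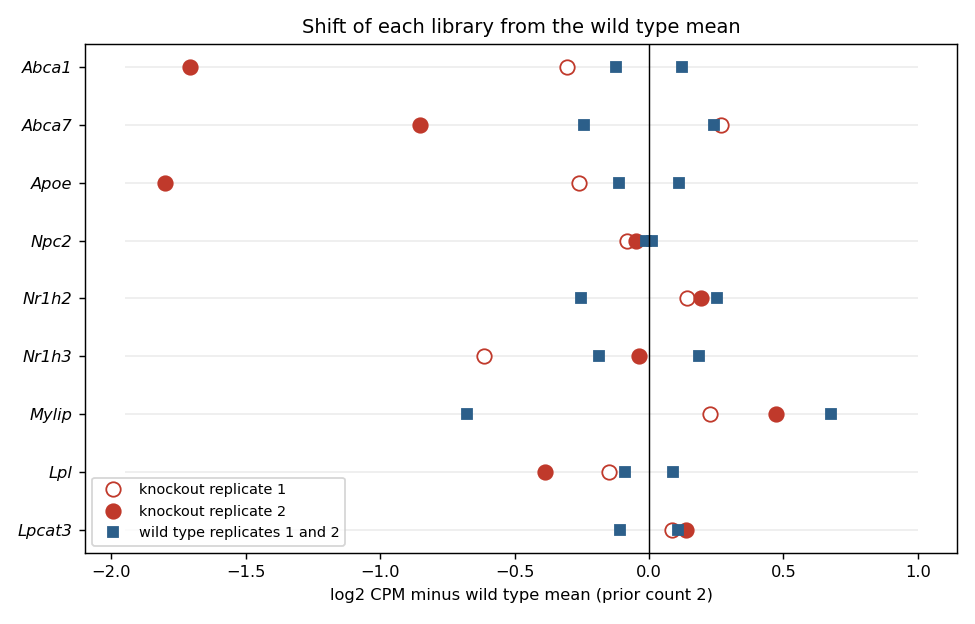
Distance of each library from the wild type mean in log2 CPM for the 9 tested genes, with knockout replicate 1 as open red circles, knockout replicate 2 as filled red circles and the wild type libraries as blue squares. Abca1 and Apoe reach -1.71 and -1.80 in knockout replicate 2 and stay at -0.30 and -0.26 in replicate 1.

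Leaving out a library showed the same dependence. Without knockout replicate 1, edgeR gave Abca1 a log2 fold change of -1.73 (SE 0.33, adjusted p = 0.0067) and Apoe one of -1.83 (SE 0.32, adjusted p = 0.0037). These were the 2 of 9 genes called in that fit, where 0.236% of all genes were called and 0.161% were called lower. Without knockout replicate 2, Abca1 was at -0.31 (SE 0.28) and Apoe at -0.27 (SE 0.27), 0 of 9 genes were called, and 0.00502% of all genes were. Without wild type replicate 1 (0.156% of all genes called) and without wild type replicate 2 (0.0854%), 0 of 9 were called, with Abca1 at -0.73 and -0.96 and Apoe at -0.95 and -0.72. Such fits assume that the single library left in a group varies like the pair of the other group. The adjusted p-values without knockout replicate 1 therefore compare that one library, and not the genotype, with the wild type.

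**Figure D3:**
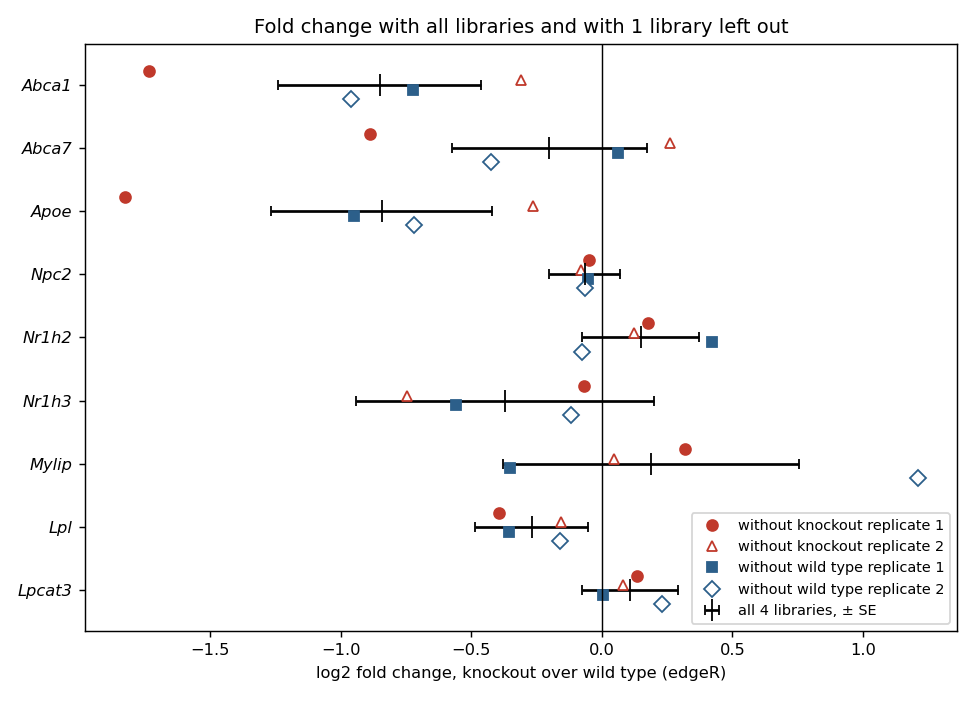
Log2 fold change (knockout over wild type, edgeR) of the 9 tested genes with all 4 libraries (black bars, ± SE) and with each library left out in turn (symbols). For Abca1 and Apoe the value is -1.73 and -1.83 without knockout replicate 1, against -0.31 and -0.27 without knockout replicate 2, while Npc2 hardly varies.

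Npc2 (ENSMUSG00000021242, chromosome 12), the soluble protein that hands cholesterol from lysosomal particles to the membrane protein Npc1, was the steadiest of the 10. It measured 110 and 113 CPM in knockout replicates 1 and 2, against 118 and 116 CPM in wild type replicates 1 and 2. The groups did not overlap, but the difference was small, at -0.07 log2 units (SE 0.14, interval from -0.37 to 0.24). Both knockout libraries were below both wild type libraries for 4 of the 9 genes, Abca1, Apoe, Npc2 and Lpl, against 14.9% of all genes tested, and for 0 they were above, against 12.5%.

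In knockout replicate 2 the receptor genes were 0.19 (Nr1h2) and -0.04 (Nr1h3) log2 units from the wild type mean. Nr1h2 (ENSMUSG00000060601, chromosome 7) encodes LXR beta, the widely expressed form, and Nr1h3 (ENSMUSG00000002108, chromosome 2) encodes LXR alpha, the form prominent in liver and macrophages. Nr1h2 measured 18.5 and 19.2 CPM in knockout replicates 1 and 2, against 20.0 and 14.0 CPM in wild type replicates 1 and 2. Both knockout values lay between the wild type values, and the log2 fold change was 0.15 (SE 0.22), with 0.42 without wild type replicate 1 and -0.08 without wild type replicate 2. Nr1h3 had only 9 and 14 counts in the knockout, against 9 and 15 counts in the wild type, or 0.475 and 0.766 CPM in the knockout against 0.679 and 0.915 CPM in the wild type. At this depth its log2 fold change of -0.37 had an interval from -1.64 to 0.90, and the groups overlapped.

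Per length, Nr1h2 was the main LXR transcript in every library. The ratio of Nr1h2 to Nr1h3, in CPM per kilobase of transcript, was 38.0 and 24.4 in knockout replicates 1 and 2, against 28.8 and 15 in wild type replicates 1 and 2. It rests on 9 to 15 counts of Nr1h3 in a library. The ratio of Abca1 to Abca7 was 1.18 and 0.973 in knockout replicates 1 and 2, against 1.62 and 1.92 in wild type replicates 1 and 2.

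None of the remaining LXR targets lay 1 log2 unit or more under the wild type mean in knockout replicate 2. Lpl (ENSMUSG00000015568, chromosome 8), which splits triglyceride in lipoproteins, measured 13.0 and 11.1 CPM in knockout replicates 1 and 2, against 13.6 and 15.4 CPM in wild type replicates 1 and 2. Knockout replicate 2 was again the lowest, at -0.39 log2 units from the wild type mean, but the log2 fold change of -0.27 (SE 0.22) was close to the median SE of all tested genes, 0.25. Mylip (ENSMUSG00000038175, chromosome 13), the ubiquitin ligase also called Idol that marks lipoprotein receptors for destruction, had 18 and 21 counts in the knockout, against 6 and 22 counts in the wild type. The single low library was wild type replicate 1, and the log2 fold change of 0.19 (SE 0.57) was -0.35 without that library and 1.21 without wild type replicate 2.

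Lpcat3 (ENSMUSG00000004270, chromosome 6), which puts polyunsaturated fatty acids into membrane phospholipid, measured 24.5 and 25.4 CPM in knockout replicates 1 and 2, against 21.4 and 24.9 CPM in wild type replicates 1 and 2. The groups overlapped and the log2 fold change was 0.11 (SE 0.18). Its exons overlap those of Emg1 on the opposite strand, and no source used here states how strand was treated in counting, so without strand the reads of these genes cannot be told apart. Emg1 held 1939 and 2283 counts in the knockout and 1640 and 2115 in the wild type. No exon overlap with another gene was annotated for Abca1, Abca7, Apoe, Npc2, Nr1h2, Lpl or Mylip, and the transcript Gm13783 over Nr1h3 had at most 3 counts.

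Levels were compared between genes as CPM per kilobase of the annotated principal transcript, with SD over the libraries. Npc2 led at 33.9 in the knockout and 35.5 in the wild type. Apoe was at 6.92 in the knockout and 12.4 in the wild type, Lpcat3 at 10.9 in the knockout and 10.2 in the wild type, and Nr1h2 at 9.41 in the knockout and 8.51 in the wild type. In the wild type Apoe was in second place, with 11.5 and 13.4 above Lpcat3 at 9.40 and 10.9, and in knockout replicate 2 it was at 3.50, under Nr1h2 at 9.58 and near Lpl at 2.69. Over all 4 libraries Lpcat3 (10.5 ± 0.787), Apoe (9.67 ± 4.30) and Nr1h2 (8.96 ± 1.33) did not differ beyond their spread.

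Below these came Lpl at 2.93 in the knockout and 3.53 in the wild type, then Abca1 at 0.836 in the knockout and 1.51 in the wild type, and Abca7 at 0.749 in the knockout and 0.867 in the wild type, all in CPM per kilobase. The ranges of Abca1 (0.453 to 1.64) and Abca7 (0.466 to 1.03) over the 4 libraries overlapped. Nr1h3 (0.243 to 0.468) and Mylip (0.148 to 0.438) overlapped too, and Abcg1 was last at no more than 0.026. With the length of all annotated exons in place of the principal transcript, the order was the same except that Mylip and Nr1h3 changed places.

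Genes whose pattern over the 4 libraries was nearest to that of Apoe were Neurl1b, Mapt, Gstm1, Nsg2 and Sema5a, at distances of 0.330, 0.447, 0.481, 0.556 and 0.567 (Euclidean distance of centred log2 CPM, among 8001 other genes with a mean of at least 20 CPM). For Abca1 they were Neurl1b, Mapt, Gstm1, Nsg2 and Atp1b2, at 0.262, 0.389, 0.395, 0.402 and 0.448. Abca1 and Apoe were 0.343 apart from each other, both under that minimum of expression. Neurl1b, a ubiquitin ligase of the Notch pathway, read 33.9 and 11.1 CPM in knockout replicates 1 and 2, against 35.4 and 32.6 CPM in wild type replicates 1 and 2. Knockout replicate 2 was its lowest library by far, and knockout replicate 1 lay between the wild type libraries, whereas for Abca1 and Apoe knockout replicate 1 lay below both.

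The wider pathway was covered by 8 lists with 66 genes, of which 59 were tested. In these lists 0 genes were called by edgeR, DESeq2 or limma-voom, and 0 had an unadjusted p under 0.05 by any of the 3. Of the 59, 35 had a negative and 24 a positive log2 fold change, with a median of -0.04. The median distance from the wild type was 0.05 in knockout replicate 1 and -0.17 in knockout replicate 2, where 1 of the 59 genes, Cyp46a1, was at least 1 log2 unit lower.

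Among partners and cofactors of the LXRs, 0 of 7 tested genes were called. The corepressor gene Ncor1 was at 0.09 (SE 0.15) and the coactivator gene Ncoa2 at 0.24 (SE 0.14) in log2 fold change. Rxrg, an RXR subtype of few tissues, had 0 and 1 counts in the knockout and 1 and 0 in the wild type.

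Among 10 tested other LXR targets, 6 were negative and 4 positive, with 0 called. By library, 3 of the 10 were under the wild type mean in knockout replicate 1 and 9 in knockout replicate 2. Of all 19912 tested genes, 9624 were under it in replicate 1 and 10324 in replicate 2. The median distance of these targets was 0.07 in replicate 1 and -0.32 in replicate 2. It was 0.09 and -0.21 for sterol movement and storage, and -0.02 and 0.12 for fatty acid uptake and lipid droplets. Arl4c, a small GTPase gene that responds to LXR, measured 47.3 and 41.9 CPM in knockout replicates 1 and 2, against 59.3 and 49.8 CPM in wild type replicates 1 and 2. Srebf1, the lipogenic transcription factor gene with the matching promoter letters, measured 68.1 and 56.8 CPM in the knockout, against 89.1 and 56.9 CPM in the wild type. Fasn, the fatty acid synthase gene with the same letters as Abca1, was at 460 and 211 CPM in knockout replicates 1 and 2, against 468 and 203 CPM in wild type replicates 1 and 2. Replicate 2 was the lower one in both genotypes for Fasn, and its log2 fold change was -0.00 (SE 0.47). Scd1, a desaturase gene, was at -0.20 (SE 0.17).

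Lipoprotein receptor genes had 2 negative and 5 positive members of 7, with 0 called. The apolipoprotein E receptor gene Vldlr was at 0.20 (SE 0.17) and the sorting receptor gene Sorl1 at -0.37 (SE 0.33). Of 10 genes of sterol movement and storage inside the cell, 7 were negative and 3 positive, with 0 called. Nceh1, which frees cholesterol from its esters, was at -0.38 (SE 0.20), with 23.5 and 20.0 CPM in the knockout and 25.1 and 31.3 CPM in the wild type. Lipa, the lysosomal lipase gene, was at 0.31 (SE 0.24) and the sterol transfer gene Gramd1a at 0.21 (SE 0.15).

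Enzymes that make or remove LXR ligands were mostly near the lower end of detection. Cyp46a1, which makes 24-hydroxycholesterol, a brain oxysterol that binds LXRs, had 19 and 10 counts in the knockout, against 17 and 32 counts in the wild type. The log2 fold change was -1.06 (SE 0.49). Both knockout CPM values, 1.00 and 0.547, were below both wild type values, 1.28 and 1.95. Ch25h, another oxysterol enzyme, had 0 and 0 counts in the knockout and 0 and 2 in the wild type, where a count of 0 allows up to 0.165 and 0.155 CPM in knockout replicates 1 and 2 and 0.234 CPM in wild type replicate 1. Cyp7b1, an oxysterol hydroxylase, was at -0.21 (SE 0.27).

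Of 8 SREBP2 target genes, the arm of sterol control that raises synthesis and uptake, 7 were negative and 1 positive, with a median of -0.21 and 0 called. Insig1 measured 364 and 303 CPM in the knockout and 417 and 417 CPM in the wild type (log2 fold change -0.32, SE 0.17). The distance from the wild type mean was -0.20 in knockout replicate 1 and -0.46 in knockout replicate 2 for Insig1, which encodes a sterol sensor partner that holds back SREBP processing.

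Of 7 tested other ABC lipid transporters, 5 were negative and 2 positive, from -0.25 for Abca5 to 0.14 for Abca8b, and the peroxisomal Abcd3 was at -0.09. Of 7 tested genes of fatty acid uptake and lipid droplets, 2 were negative and 5 positive. Fabp7, the fatty acid carrier of radial glia, was highest in knockout replicate 2, with 1830 and 2985 CPM in the knockout and 1635 and 2118 CPM in the wild type. The lipase genes Pnpla2 and Lipe were at -0.35 (SE 0.29) and 0.33 (SE 0.31). None of these was called.

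**Figure D4:**
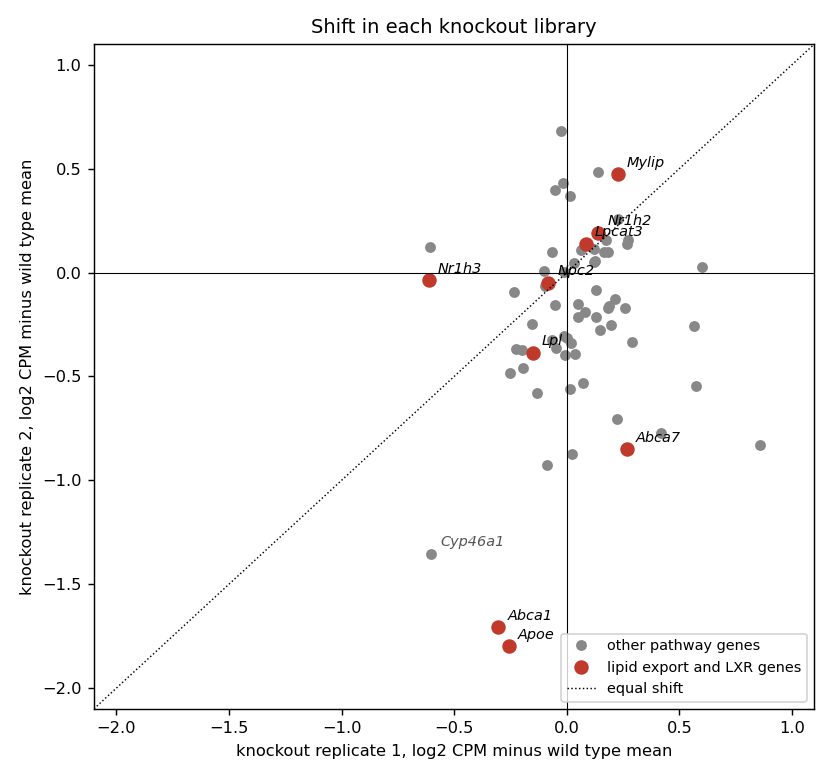
Distance from the wild type mean in log2 CPM in knockout replicate 1 (horizontal) and knockout replicate 2 (vertical) for the 9 tested lipid export and LXR genes (red) and 59 other pathway genes (grey), with a dotted line of equal shift. Abca1 and Apoe, at -1.71 and -1.80 on the vertical axis, are the lowest points in replicate 2, followed by Cyp46a1 at -1.35.

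Apoe, Abca1 and Lpl are also expressed by astrocytes and microglia, so markers of both were read beside them. Of 10 astrocyte markers, all tested, 8 were negative and 2 positive, with a median of -0.29 and 0 called by edgeR. Their summed level was 905 and 762 CPM in knockout replicates 1 and 2, against 831 and 928 CPM in wild type replicates 1 and 2. These sums overlap through Aldh1l1. Aldh1l1 was left out only after its values were seen, so the subset without it is a description. Over the other 9 markers the sums were 658 and 564 CPM in the knockout, against 721 and 770 CPM in the wild type. In that subset both knockout sums were below both wild type sums, a separation that the full list does not show. Marker by marker, both knockout libraries were below both wild type libraries for 6 of the 10, against 14.9% of all genes tested. For 1 marker, Aldh1l1, they were above, against 12.5% of all genes tested. The members were uneven in knockout replicate 2, where Gfap was -1.69, Atp1b2 -1.17 and S100b -1.08 log2 units from the wild type mean, but Aqp4 0.06 and Aldh1l1 0.59. Gfap, a filament of astrocytes, had a low level, at 3.54 and 1.26 CPM in the knockout and 3.85 and 4.88 CPM in the wild type. Of all astrocyte markers, 2 had an unadjusted edgeR p under 0.05, in opposite directions, Sparcl1 (-0.40) and Aldh1l1 (0.73). Aldh1l1 was at 247 and 198 CPM in the knockout and 110 and 158 CPM in the wild type. Mlc1 was at 162 and 135 CPM in the knockout and 204 and 174 CPM in the wild type. The bulk libraries do not show whether these markers came from astrocytes or from the neural stem cells. The part of astrocyte-type cells in the low Apoe and Abca1 was not tested.

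Of 10 microglia and macrophage markers, 7 were under the filter, and Tmem119, Trem2 and Itgam had 0 counts in all 4 libraries. Their summed level was 8.02 and 6.84 CPM in knockout replicates 1 and 2, against 7.02 and 7.01 CPM in wild type replicates 1 and 2, most of it from Csf1r. Summed neuronal markers were 1137 and 1358 CPM in the knockout and 1023 and 1297 CPM in the wild type, nearly all Map2, with 3 of 6 markers negative. Summed oligodendrocyte lineage markers were 1454 and 1398 CPM in the knockout, against 1418 and 1282 CPM in the wild type, led by Olig1 and Olig2. All 7 of these markers had a positive log2 fold change, with a median of 0.34 and 0 called. For 4 of the 7 both knockout libraries were above both wild type libraries, against 12.5% of all genes tested. Sox10, a transcription factor of that lineage, measured 3.22 and 2.52 CPM in the knockout, against 0.528 and 1.34 CPM in the wild type (log2 fold change 1.57, SE 0.45), and it was the 1 marker of the 7 with an unadjusted edgeR p under 0.05. Summed endothelial and mural markers were 4.70 and 3.72 CPM in the knockout, against 8.68 and 6.04 CPM in the wild type. They were led by Acta2, at 2.59 and 1.81 CPM in the knockout, against 6.64 and 3.66 CPM in the wild type, and all 3 tested were negative with 0 called. The part of these cell types in the values of Abca1 and Apoe was not tested.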

How the data were processed

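Each library has 1 deposited file of raw read counts by gene, with no normalisation. The tools named in the submitters' processing notes are featureCounts and STAR 2.7.10, with the build GRCm39. How strand and reads with several matches were handled is not stated in the sources used here. Symbols, lengths and GC content came from GENCODE M21, an earlier build, which matched 52133 of 55414 identifiers; promoter windows came from RefSeq GRCm38.p6. Genes passing filterByExpr (minimum count 10) entered the robust quasi-likelihood F test of edgeR 4.0.16, run in R 4.3.3, after TMM scaling, and Benjamini-Hochberg adjustment over all genes tested. Alternatives were DESeq2 1.42.0, limma-voom (limma 3.58.1), other scaling and filters, protein-coding genes only, each library left out on the same genes, a replicate block and, added after seeing the data, removal of each library's GC trend. The test was checked on simulated counts. Replicates were distinct libraries, since chi-square over its degrees of freedom was 29.5 between the knockout and 18.7 between the wild type libraries. Limits for a count of 0 use 3 counts over the library total, cover counting error only, and rest on reads without molecular identifiers. The genes and lists were chosen with earlier results of these data known. Genes named beyond the 10 are Mettl4, up to 3 per pathway list with the smallest p (some are not reported here), up to 2 per marker list with the highest level, the 5 nearest patterns, and some named after their values were seen (Fasn, Rxrg, Ch25h, Emg1, Ddx3y, Sox10 and the astrocyte and microglia markers beyond Aldh1l1, Mlc1 and Csf1r).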

Additional observations from a re-analysis of the deposited data

How the results depend on the processing

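Over 15 alternative settings, 134 values of the 9 tested genes were recomputed, of which 128 kept their direction and their side of the threshold, 2 passed it (Abca1 and Apoe without knockout replicate 1) and 4 changed sign, each time with a library left out. With a library left out, log2 fold changes ran from -0.35 to 1.21 for Mylip, from -0.076 to 0.42 for Nr1h2, from -0.89 to 0.26 for Abca7, from -1.73 to -0.31 for Abca1 and from -1.83 to -0.27 for Apoe. The number of the 9 genes called ran from 0 to 2 in these fits, their median log2 fold change from -0.35 to -0.068, and the number of all genes called from 1 to 47. The median was -0.13 with at least 1 CPM in 2 libraries (a fit that drops Nr1h3), -0.27 with limma-voom, -0.27 with the replicate block and -0.16 with the GC trend removed. All genes called numbered 41 without a low-count filter, 6 with DESeq2, 9 with the replicate block and 85 with the block and the GC trend removed. Why these differ was not tested. At an unadjusted p under 0.05, edgeR fits of all 4 libraries put Abca1 alone there with RLE scaling (2.81% of all genes), with the replicate block (7.83%) and with the block and the GC trend removed (7.74%), Abca1 and Apoe with no low-count filter (3.06%), and 0 of the tested genes in the other settings. No label marks pairs, and same-numbered libraries deviated together with a correlation of 0.23, so the block rests on a shared number only; with it Abca1 was at -0.97 and Apoe at -0.98, neither called (adjusted p = 0.39 and 0.74 in edgeR). Over all alternatives the adjusted p ran from 0.0067 to 1.00 for Abca1 and from 0.0037 to 1.00 for Apoe. The fitted GC trend came to -0.03 log2 units for Abca1 and -0.17 for Apoe in knockout replicate 2 against the wild type, and with it removed Abca1 was at -0.85 and Apoe at -0.83. Abcg1, Nr1h3 and Mylip are limited by their few counts.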
